A study of Mus musculus with 8 samples.

Results

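Transcripts of 9 genes of transforming growth factor beta (TGF-beta) signalling were measured in hearts with and without the coactivator SRC-2. The genes were the ligands Tgfb1, Tgfb2 and Tgfb3, the receptors Tgfbr1 and Tgfbr2, the intracellular mediators Smad2, Smad3 and Smad7, and the latent ligand binding protein Ltbp1. They were chosen by name as the core of the pathway, with earlier results of these data known. They are 9 of the 18194 genes that the arrays measured. Each gene is given by its brightest probeset over the 8 arrays, where a probeset is a group of short probes that reads 1 transcript.

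Hearts came from unstressed male mice of the mixed strain C57B/6Jx129Sv, 10 to 12 weeks old per the labels and fed ad lib. Of these, 4 were wild type (WT) and 4 were SRC-2 knockout (KO), and RNA of each whole heart was hybridized to its own Affymetrix mouse expression array. SRC-2 is encoded by Ncoa2 and was absent from every cell of the KO animal, not from the heart alone. Each array comes from 1 mouse, so the spread within a genotype includes the spread between animals. The comparison of KO with WT asks which cardiac transcripts differ when SRC-2 is lost in an unstressed heart.

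TGF-beta is secreted as an inactive complex that is held in the extracellular matrix by latent TGF-beta binding proteins, and it is freed by integrins and proteases. The active ligand joins the type II receptor Tgfbr2 to the type I receptor Tgfbr1, which phosphorylates Smad2 and Smad3. These enter the nucleus with Smad4 and turn on target genes, among them the inhibitor Smad7, which closes a negative feedback loop. In the heart the pathway is best known for driving fibroblasts to deposit collagen after injury, and it acts on cardiac myocytes, vessels and valves as well.

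Tgfb1 and Tgfb2 have unlike promoters, and their windows are shown. These ligands had the least and the most negative fitted difference of the 3, and no window was available for Tgfb3. Each window is the 250 bases before a RefSeq transcription start in GRCm38.p6. These are chr7:25686752-25687001 on the plus strand for Tgfb1 and chr1:186705990-186706239 on the minus strand for Tgfb2. The Tgfb2 window lies inside the annotated gene (186622787 to 186709697), so its start is downstream of the gene's outermost start. Capitals mark matches on either strand to the GC box GGGCGG, the TATA box TATAAA, the E-box CACGTG, the SMAD box CAGAC and the cAMP response element TGACGTCA.
Tgfb1: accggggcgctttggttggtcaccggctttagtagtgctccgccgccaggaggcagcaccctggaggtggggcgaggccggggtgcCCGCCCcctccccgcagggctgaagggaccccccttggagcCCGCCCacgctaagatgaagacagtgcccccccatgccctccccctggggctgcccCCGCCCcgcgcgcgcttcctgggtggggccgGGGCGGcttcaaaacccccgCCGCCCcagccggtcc
Tgfb2: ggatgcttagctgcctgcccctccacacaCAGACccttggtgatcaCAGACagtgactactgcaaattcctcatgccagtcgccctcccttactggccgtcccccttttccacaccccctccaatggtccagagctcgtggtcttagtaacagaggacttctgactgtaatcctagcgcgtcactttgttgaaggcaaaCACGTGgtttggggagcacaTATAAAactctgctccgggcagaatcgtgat
The Tgfb1 window is 75.2% G and C, more than 96.1% of the 32851 promoters in the RefSeq table, and it holds 5 GC boxes, the nearest 16 bases before the start. The Tgfb2 window is 53.6% G and C and holds a TATA box 31 bases and an E-box 51 bases before the start, with SMAD boxes at 204 and 221 bases. A TATA box was found in 12.4% of all promoters, an E-box in 6.02%, a GC box in 32.7%, a SMAD box in 42.2% and the cAMP response element in 1.55%. These are matches of letters only and the arrays do not read promoter activity.

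Ncoa2, the deleted gene, was read first. Its signal was 1660, 2115, 1827 and 2134 in the WT hearts and 237, 260, 267 and 235 in the KO hearts, each array being scaled to a trimmed mean signal of about 500. It fell by 2.95 on the log2 scale, with a limma adjusted p of 5.88e-04, and every KO heart lay below every WT heart. The second Ncoa2 probeset lay apart too, with a log2 difference of -2.63. Dimmer ones, with mean signals of 49.9 and 61.7 in WT hearts, overlapped between genotypes and gave 0.67 and -0.28. Median signals of the 8 arrays ran from 75.6 to 87.3. Signals under 50, a level taken here as near background, made up 36.9% to 40.7% of the probesets of an array. All 9 members were brighter than that in every heart, and so was the brightest Ncoa2 probeset, also in the KO hearts.

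None of the 9 members passed the test between genotypes. In limma with 1 prior variance for all genes (the common-variance fit), 0.022% of the 18194 genes had an adjusted p under 0.05 (0.0055% higher and 0.0165% lower in KO). In limma with a prior variance that follows the signal (the trended fit) the share was 0.379% (0.121% higher and 0.258% lower). At an unadjusted p under 0.05 the common-variance fit holds 10.1% of all genes and the trended fit 12.6%. Of the members, only Tgfb2 and Smad7 were under that level, in both fits. At the adjusted threshold 0 of 9 members were called in either fit. The fitted difference in log2 signal was below 0 for 7 of 9 members and above 0 for 2, against 53% and 47% of all genes. It was below 0 for 5 of 9 after median centring of the arrays, and for 5 of 9 without KO heart 3. The median difference over the members was -0.18, beside -0.03 over all genes. The members' median was -0.07 without KO heart 3, -0.08 without WT heart 2 and -0.09 after median centring, and it ran from -0.26 to -0.07 over all alternatives. Over all genes the median was -0.02 without KO heart 3, -0.02 without WT heart 2 and 0.06 after median centring. Centring moves every gene of an array alike, so it raised the members and all genes together. Smad7 was the single member whose KO and WT hearts did not overlap (1 of 9), against 6.83% of all genes (3.72% lower and 3.11% higher in KO) and 9.61% of the 9097 genes above the median signal, so the share of members is near the background.

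**Figure D1:**
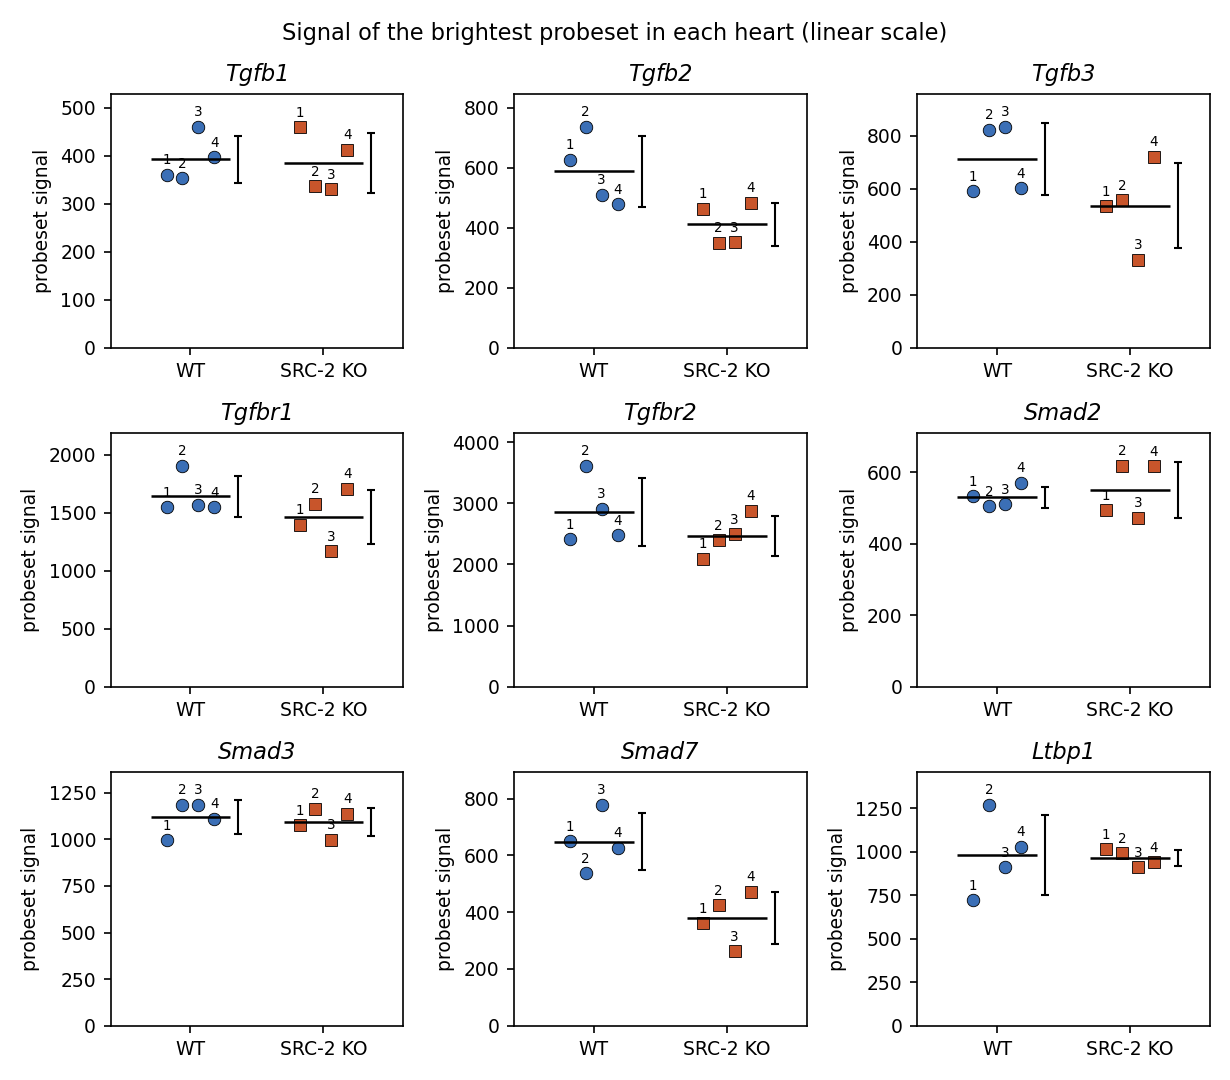
Signal of each member on a linear axis in the 4 WT and 4 SRC-2 KO hearts, with the replicate number of each heart as a digit. Bars give the mean and SD of each genotype. All 4 KO hearts lie below all 4 WT hearts for Smad7, and the genotypes overlap for the other 8 members.

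Among the ligands, Tgfb1 showed little difference between genotypes, while Tgfb2 and Tgfb3 had lower fitted values that did not pass the test. Tgfb1, the isoform most abundant in platelets and leukocytes, had a signal of 360, 353, 460 and 397 in WT hearts and of 459, 336, 330 and 413 in KO hearts. The genotypes covered nearly the same range. The KO minus WT difference was -0.04 on the log2 scale (SE 0.16, common-variance adjusted p = 0.95), and it was 0.050 after median centring and 0.045 after quantile normalization.

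Tgfb2, the isoform required for septation and valve formation in the embryonic heart, had a signal of 627, 736, 509 and 479 in WT hearts and of 462, 350, 350 and 482 in KO hearts. Of the KO hearts, 3 were below the lowest WT heart, and KO heart 4 overlapped WT heart 4. WT hearts averaged 588 ± 118 (SD, n = 4) and KO hearts 411 ± 71.1 (SD, n = 4). The log2 difference was -0.51 (SE 0.19), with a common-variance adjusted p of 0.46 and a trended adjusted p of 0.24. The exact permutation test of this gene alone gave p = 0.057 (two-sided), where 0.0286 is the smallest p that 4 hearts against 4 allow.

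Tgfb3, which acts in palate closure and tissue repair, had a signal of 590, 823, 834 and 601 in WT hearts and of 533, 556, 332 and 721 in KO hearts. Below the lowest WT heart were 3 of the KO hearts, and KO heart 4 lay among the WT hearts. The log2 difference was -0.44 (SE 0.26, common-variance adjusted p = 0.59, trended adjusted p = 0.42).

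The KO effect was also compared between ligands within each heart. The log2 difference of Tgfb1 exceeded that of Tgfb2 by 0.47 (SE 0.22, exact permutation p = 0.057 and 0.13 after adjustment over 7 pairs of members) and that of Tgfb3 by 0.41 (exact permutation test, adjusted p = 0.35). Tgfb2 and Tgfb3 differed by -0.07 (SE 0.24). No pair of ligands passed. With 4 hearts a genotype, at least 5 of the 7 pairs would need the smallest possible p for any to be under 0.05 after adjustment, so this design could hardly show unequal responses.

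Both receptors were bright and had slightly lower fitted values in KO hearts, well within the spread of the hearts. Tgfbr1, the type I receptor kinase, had a signal of 1550, 1908, 1569 and 1549 in WT hearts and of 1397, 1579, 1169 and 1707 in KO hearts. WT heart 2 stood above the other 7 hearts, and KO heart 3 below them. The log2 difference was -0.18 (SE 0.15, common-variance adjusted p = 0.71). It was -0.10 without WT heart 2, -0.07 without KO heart 3 and -0.09 after median centring.

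Tgfbr2, the receptor that binds the ligand first, had a signal of 2414, 3613, 2912 and 2472 in WT hearts and of 2091, 2396, 2489 and 2877 in KO hearts. WT heart 2 was again the highest. The log2 difference was -0.20 (SE 0.17, common-variance adjusted p = 0.71), and the 95% interval of the trended fit ran from -0.49 to 0.09. It was -0.08 without WT heart 2, -0.13 without KO heart 1 and 0.12 with the mean of its probesets. The dimmer Tgfbr2 probesets, with mean signals of 43.0 and 22.6, have equal weight in that mean. The KO effects on the receptors differed by 0.03 (SE 0.14), the pair with the smallest difference.

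The mediators divided by their values. Smad2 and Smad3, which carry the signal, had KO and WT means within a few percent of each other, whereas Smad7, the feedback inhibitor, had the most negative fitted difference of all 9 members. Smad2 had a signal of 533, 504, 510 and 571 in WT hearts and of 494, 618, 472 and 617 in KO hearts. Of the KO hearts, 2 were above and 2 below the whole WT range. The log2 difference was 0.05 (SE 0.13, common-variance adjusted p = 0.92), and the 95% interval of the trended fit was -0.25 to 0.34.

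Smad3 had a signal of 996, 1187, 1186 and 1110 in WT hearts and of 1077, 1166, 998 and 1138 in KO hearts, so that every KO heart lay inside the WT range. The log2 difference was -0.03 (SE 0.11, common-variance adjusted p = 0.93), turning to 0.055 after median centring. Its 95% interval in the trended fit, -0.25 to 0.19, was the narrowest of the 9 members. Smad4, the partner that both share, had a log2 difference of -0.07.

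Smad7 had a signal of 649, 537, 778 and 627 in WT hearts and of 361, 424, 261 and 471 in KO hearts. The highest KO heart (heart 4) was below the lowest WT heart (heart 2). WT hearts averaged 648 ± 99.8 (SD, n = 4) and KO hearts 379 ± 90.8 (SD, n = 4), a log2 difference of -0.79 (SE 0.21). The common-variance adjusted p was 0.38 and the trended adjusted p 0.10, and the exact permutation p of the gene alone was 0.0286 (two-sided), the smallest that this design allows. Leaving out KO heart 4 gave a difference of -0.91 with a trended adjusted p of 0.037, the 1 setting in which any member was called. That setting also raised the calls over all genes in the trended fit, to 104 higher and 218 lower from 22 and 47.

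Within hearts, the log2 difference of Smad2 exceeded that of Smad7 by 0.84 (SE 0.16), and that of Smad3 exceeded it by 0.76 (SE 0.19). Each had an exact permutation p of 0.0286, the smallest possible, and 0.10 after adjustment over the 7 pairs. None of the 7 pairs passed, and 2 pairs at the smallest p cannot reach the threshold in this design. Smad2 and Smad3 differed from each other by 0.08 (SE 0.10).

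Ltbp1, which tethers the latent ligand to the matrix, had a signal of 721, 1272, 912 and 1031 in WT hearts and of 1015, 992, 913 and 941 in KO hearts. The KO hearts were close together and the WT hearts spread around them on both sides. The fitted log2 difference was 0.00 (SE 0.18, common-variance adjusted p above 0.99), and its 95% interval in the trended fit was -0.32 to 0.33.

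**Figure D2:**
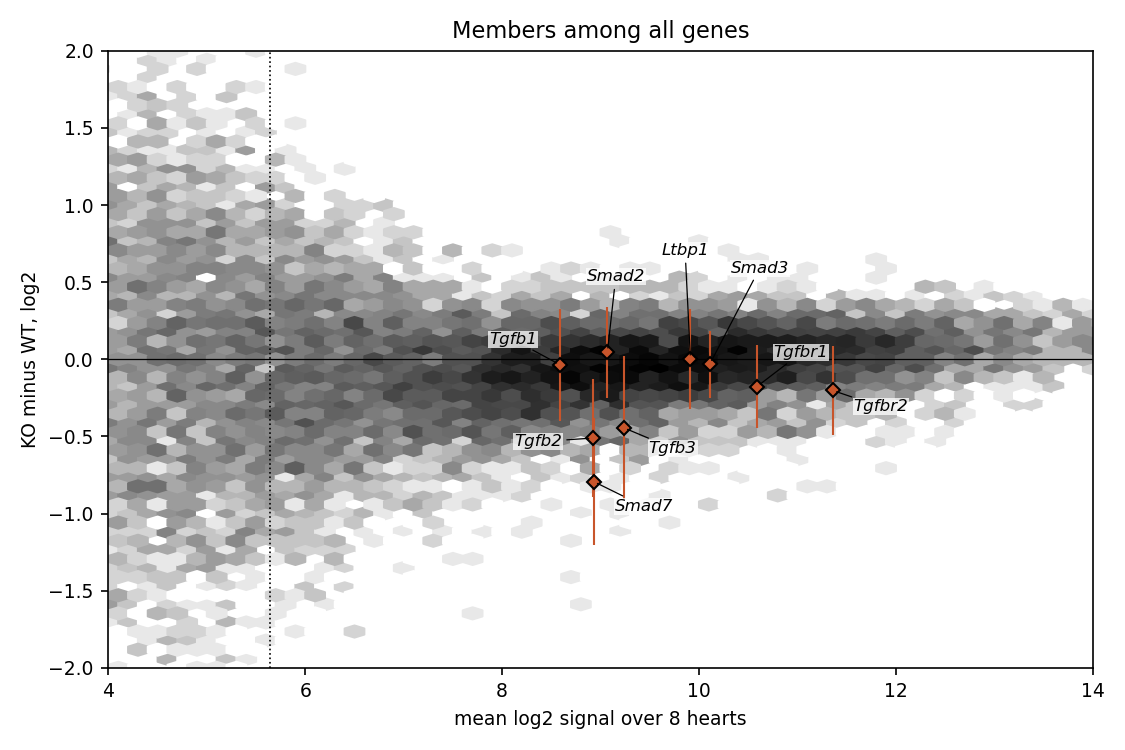
KO minus WT difference in log2 signal against mean log2 signal, with all genes in grey (darker where more genes fall), members as diamonds with the 95% interval of the trended fit, and a dotted line at a signal of 50. Smad7, at -0.79, is the lowest of the members. The intervals of Smad7 and Tgfb2 lie below 0, and those of the other 7 members cross 0.

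The arrays carry 23 probesets for these genes, and not all of them agree. Of the 23, 6 had a mean signal under 50. Of the other 17, 12 had a lower mean in KO, 1 did not overlap between genotypes, and 0 passed the test over all probesets in either fit. Of all 34958 probesets tested, 3 passed the common-variance fit and 76 the trended fit, so few calls would be looked for among 23. The share not overlapping was taken over genes only, where it was 6.83%. Tgfb2 had 4 probesets, with log2 differences of -0.51, -0.64 and -0.39 in the brighter ones and of 0.67 in the dimmest, whose signal ran from 17.3 to 88.2.

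Smad7 did not separate the genotypes in both of its probesets. The second one, whose name ending marks possible cross-hybridization to other transcripts, had a signal of 208, 293, 180 and 227 in WT hearts and of 143, 156, 206 and 250 in KO hearts. The genotypes overlapped there, with a log2 difference of -0.28 (SE 0.24, exact permutation p = 0.26). Tgfb3 has a single probeset, so its value could not be checked in this way. Secondary probesets of Tgfb1, Smad2 and Smad3 with a signal of 50 or more gave log2 differences of -0.04, 0.17 and 0.05. That of Tgfbr1, with a mean signal of 52.7 and a range of 14.7 to 87.1, gave -0.93 (SE 0.49).

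**Figure D3:**
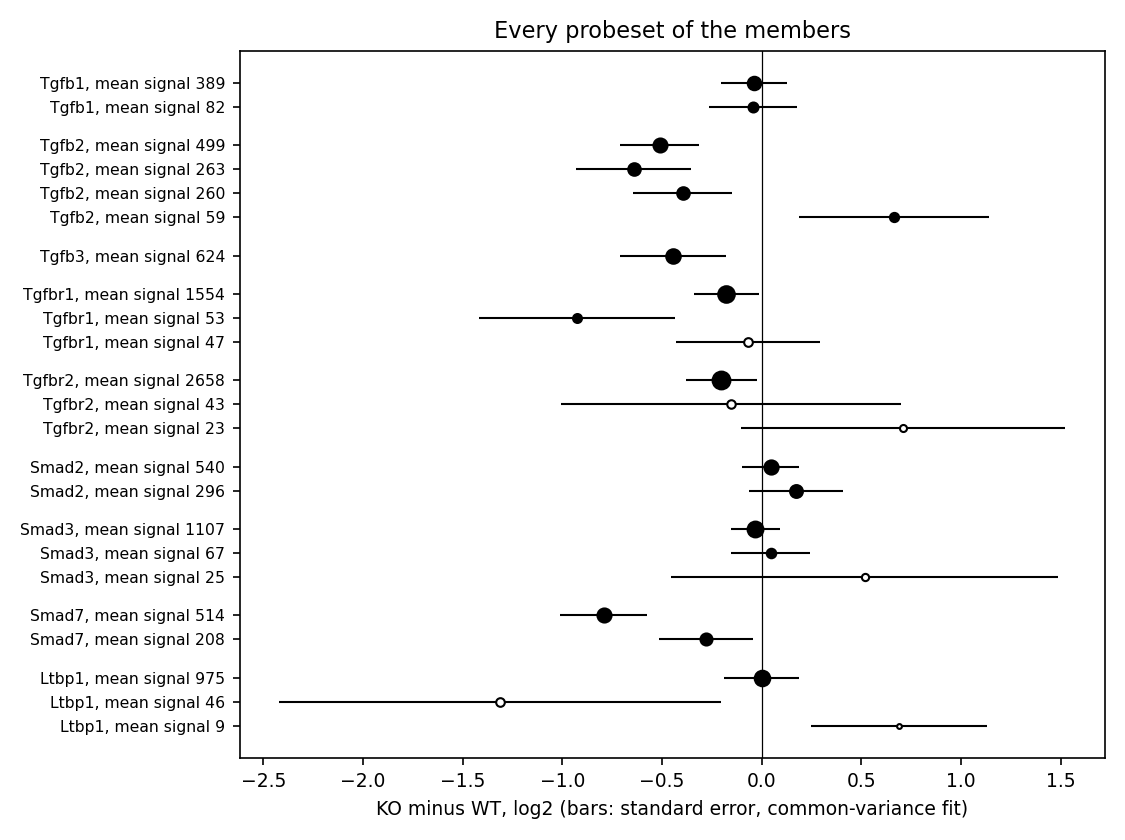
KO minus WT difference in log2 signal for each of the 23 probesets of the members, filled where the mean signal is 50 or more and open where it is lower, with bars for the SE of the probeset fit. The 3 brighter Tgfb2 probesets and both Smad7 probesets lie below 0, while the dim probesets scatter widely on both sides.

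The same few hearts set the extremes of many members. KO heart 3 was the lowest of all 8 hearts for Tgfb1, Tgfb3, Tgfbr1, Smad2 and Smad7 (5 of 9), and WT heart 2 was the highest for Tgfb2, Tgfbr1, Tgfbr2, Smad3 and Ltbp1 (5 of 9). KO heart 4 was the highest KO heart for Tgfb2, Tgfb3, Tgfbr1, Tgfbr2 and Smad7. Without KO heart 3 the log2 difference of Smad7 was -0.62 and that of Tgfb3 -0.23, and without KO heart 4 the latter was -0.60.

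Cell type markers varied between these hearts too. In RNA of whole tissue, fewer cells of a type and less RNA per cell cannot be told apart. All 10 fibroblast markers had a lower mean in KO hearts, with a median log2 difference of -0.63. Their summed signal was 85125, 132468, 82120 and 83871 in WT hearts and 60608, 61637, 55492 and 84602 in KO hearts. It was highest in WT heart 2, lowest in KO heart 3, and in KO heart 4 as high as in most WT hearts, and none of these markers was at 0 in any heart. The macrophage sum ran from 21655 to 27435 in the WT hearts and from 16545 to 20411 in the KO hearts, without overlap, with 11 of 11 markers lower. That sum was highest in WT heart 2 but lowest in KO heart 1, with 20374 in KO heart 3. Endothelial markers were lower for 9 of 10, with sums of 16455 to 19932 and 12956 to 17176. The endothelial sum was highest in WT heart 4, with 16637 in WT heart 2, and lowest in KO heart 3. The part of these cell types in the values of the members was not tested.

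The sum of 7 atrial myocyte markers ranged from 156148 to 259237 in WT hearts and from 18630 to 196118 in KO hearts, lowest in KO heart 3, so the hearts were not alike in the share of atrial signal. Cardiac myocyte markers were higher in KO for 10 of 10 with a median of 0.19, but for 4 of 10 after quantile normalization. No single marker of the fibroblast, macrophage, endothelial or myocyte lists passed either fit.

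**Figure D4:**
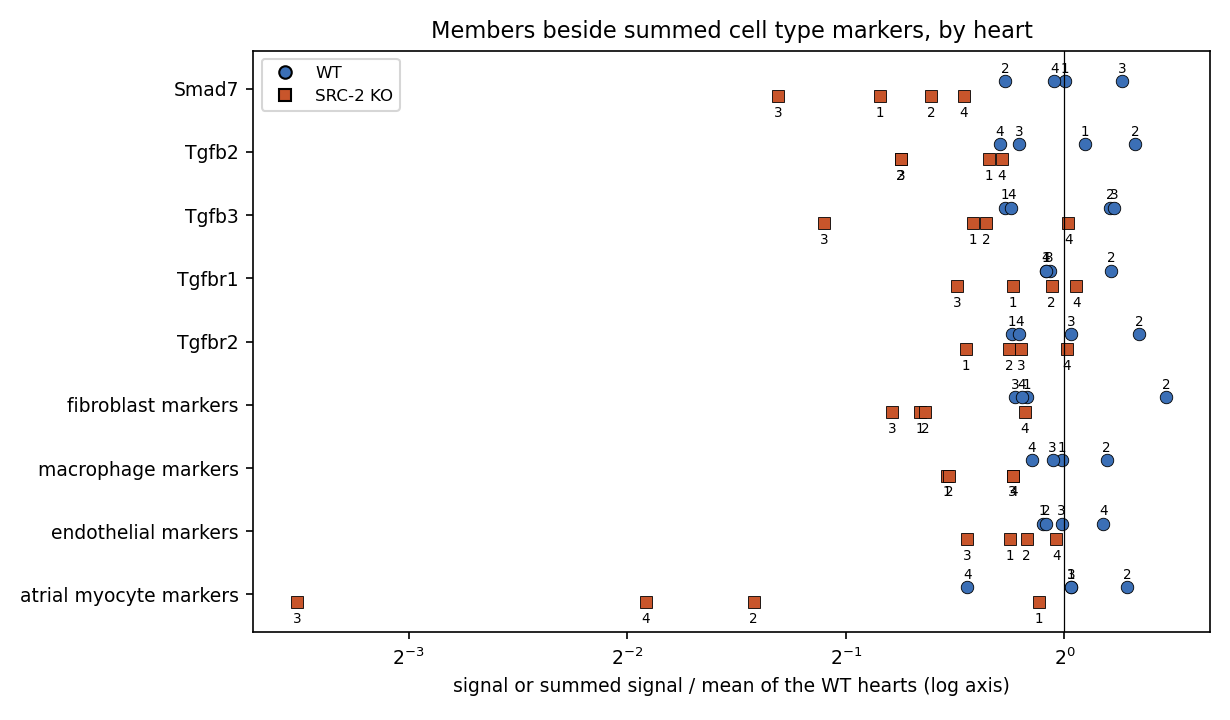
Signal of 5 members and summed signal of 4 marker lists in each heart, divided by the mean of the WT hearts, on a log axis with the heart's replicate number beside each point. WT heart 2 is the highest for the fibroblast sum and for Tgfb2, Tgfbr1 and Tgfbr2, and KO heart 3 is the lowest for the fibroblast sum, Smad7, Tgfb3 and Tgfbr1.

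The rest of the pathway was read in 8 lists of other genes. Most lists had more members lower than higher in KO, beside 53% of all genes lower, and each held at most 1 gene that passed the trended fit. No gene of the 8 lists passed the common-variance fit.

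Genes that store and free the ligand were lower for 13 of 18 (13 to 16 when any heart was left out), with a median log2 difference of -0.29. Mmp14, a membrane protease that can release latent TGF-beta, had a signal of 930, 968, 905 and 1054 in WT hearts and of 437, 653, 561 and 666 in KO hearts. The genotypes did not overlap. It fell by 0.75 in the trended fit (adjusted p = 0.045), was not called in the common-variance fit (adjusted p = 0.31), and its call was lost in 12 of 16 alternatives to the trended fit. Both other Mmp14 probesets overlapped between genotypes, with log2 differences of -0.50 and -0.06, and the mean of its probesets gave -0.44 (trended adjusted p = 0.60).

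Itgb6 encodes the integrin subunit of the main epithelial activator of TGF-beta. Its signal ran from 254 to 401 in the WT hearts and from 113 to 197 in the KO hearts, with no overlap in either of its probesets, and the log2 difference was -1.02 (trended adjusted p = 0.10). Mmp2, a gelatinase, had a difference of -0.77 with overlapping genotypes. Itgav, Itgb8 and Ltbp3 had log2 differences of -0.44, -0.89 and -0.35, and none passed.

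The proteoglycans and co-receptors that bind the ligand were lower for 9 of 9 (7 to 9 when any heart was left out), with a median of -0.17 and no call. The small matrix proteoglycans Bgn, Aspn and Fmod had differences of -0.60, -0.58 and -0.40, and the co-receptors Eng and Tgfbr3 of -0.17 and -0.07. Other receptors of the superfamily did not lean the same way, with 3 of 9 lower and a median of 0.04. Among them Acvr1b, an activin receptor, had a difference of 0.35 and Acvrl1, an endothelial receptor, of -0.31, while Bmpr1b was near background, with a mean signal of 16.8 in WT and 45.3 in KO hearts.

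Other SMADs and SMAD partners were lower for 10 of 13 with a median of -0.15. Smad1, which carries bone morphogenetic protein signals, had a signal between 1465 and 2011 in the WT hearts, between 1179 and 1567 in the KO hearts and a difference of -0.35. Its other probesets gave -0.38 with overlap and -0.43 without. The SMAD anchors Zfyve9 and Zfyve16 had differences of 0.21 and -0.22, and Smad6, the inhibitory relative of Smad7, of -0.15 (trended adjusted p = 0.73).

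Inhibitors of the pathway were lower for 8 of 13 with a median of -0.01, and none was called. The nuclear corepressor Tgif2 had a signal of 275, 218, 321 and 285 in WT hearts and of 156, 188, 143 and 172 in KO hearts, without overlap (difference -0.73, trended adjusted p = 0.17). Its relative Tgif1, named after its values were seen, did not overlap either, with a difference of -1.42 and a signal of 12.2 in KO heart 3 against 92.3 to 106 in the other KO hearts. Pmepa1, which sequesters receptor-activated SMADs, had -0.39 and the ubiquitin ligase Wwp1 0.33, with -0.03 and 0.18 in the other Wwp1 probesets. Smurf1 and Smurf2, the ligases that work with Smad7, had -0.18 and -0.01.

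Known SMAD-dependent targets were lower for 22 of 26 (19 to 22 when any heart was left out), with a median of -0.38, and the single called gene moved the other way. Acta2, smooth muscle actin, had a signal of 22846, 19454, 19127 and 23289 in WT hearts and of 39204, 27061, 34826 and 41324 in KO hearts. It rose by 0.74 in the trended fit (adjusted p = 0.042) and was not called in the common-variance fit (adjusted p = 0.32), and its second probeset also lay apart, with a difference of 0.96. That call was lost in 11 of 16 alternatives. Acta2 is also a marker of mural cells, the smooth muscle cells and pericytes of vessels. The summed signal of 9 mural markers was 63563 to 70751 in WT hearts and, just above it, 70758 to 91085 in KO hearts. Acta2 is in that sum, so the higher sum is not separate from the Acta2 value. Mean signal was 21179 in WT and 35604 in KO hearts for Acta2, and 66124 and 78681 for the whole sum. Apart from Acta2, 7 of the other 8 mural markers had a lower mean in KO and none passed, and the part of mural cells in the Acta2 value was not tested.

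Col3a1 and Eln, each by its brightest probeset, had lower fitted values in KO without passing. Col3a1, a fibrillar collagen, had a signal of 25648 to 43853 in WT hearts and of 10567 to 24580 in KO hearts and a difference of -0.95 (trended adjusted p = 0.10). Eln, elastin, had a difference of -1.29 (trended adjusted p = 0.086). Many of these targets are fibroblast transcripts, and Col1a1, Col1a2 and Col3a1 stand in the fibroblast list as well, so the lower target counts and the lower fibroblast sum are not separate observations. Ccn2, a matricellular growth factor named after its values were seen, had a signal of 42319 in KO heart 1 against 5621 to 9177 in the other KO hearts and 7755 to 12400 in WT hearts.

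Other ligands and antagonists of the superfamily were lower for 10 of 16 with a median of -0.23. Fstl1, a secreted follistatin relative, had a difference of -0.84, Bmp2 of -0.79 and the antagonist Chrd of 0.54, and none was called. Components of SMAD-independent signalling were lower for 5 of 8 with a median of -0.08. The kinase Map3k7 and its partner Tab2 had differences of -0.18 and 0.22, and the kinase Rock1 of -0.18.

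**Figure D5:**
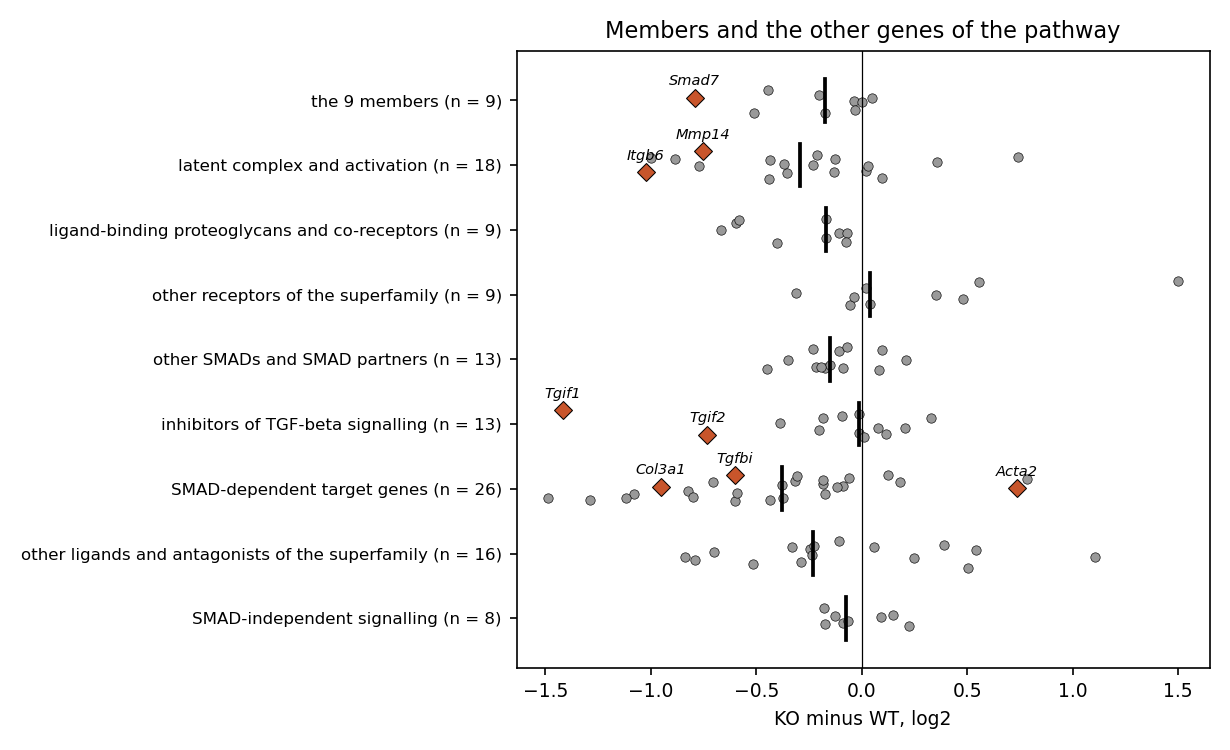
KO minus WT difference in log2 signal of the members and of the 8 lists of other pathway genes, each point a gene, with a bar at the median of each list. Diamonds are genes whose KO and WT hearts do not overlap, which are Smad7, Mmp14, Itgb6, Tgif1, Tgif2, Col3a1 and Tgfbi below 0 and Acta2 above it, 8 of 121 genes (6.61%) beside 6.83% of all genes.

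Likeness between genes was described by Pearson's r of log2 signal over the 8 hearts after the mean of each genotype was removed, among 9096 genes. It is a description with no test, since the genes were read on the same 8 arrays and many of them follow a few hearts. Tgfbr1 was most like Fam114a1 (r = 0.995) and Ccdc80 (r = 0.978), a secreted matrix protein gene, and Tgfbr2 most like Adcy7 (r = 0.986) and Camk2n1 (r = 0.980). For the ligands the likest genes were Smtn (r = 0.988) and Mfsd4b1 (r = 0.951) for Tgfb1, Fut11 (r = 0.957) and Sec62 (r = 0.946) for Tgfb2, and Plpp2 (r = 0.991) and Zbtb34 (r = 0.984) for Tgfb3.

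Smad3 was most like Eng (r = 0.980), a TGF-beta co-receptor, and Lrrc58 (r = 0.978), Smad2 most like Tmem189 (r = 0.978) and Il13ra1 (r = 0.976), Smad7 most like Ndc1 (r = 0.982) and Pfn1 (r = 0.980), and Ltbp1 most like Acsl4 (r = 0.976) and Mga (r = 0.966). Among the members, the highest r was that of Tgfb3 with Tgfbr1 (0.869), followed by Tgfb3 with Smad3 (0.817), while Smad7 with Ltbp1 had the lowest (-0.23).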

How the data were processed

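RNA of 4 WT and 4 SRC-2 KO whole hearts was hybridized to 8 arrays. The values used are the authors' deposited intensities on a linear scale (0.219 to 124739 over 45101 probesets), scaled so that each array has a mean of about 500 after trimming 2% of the probesets at each end. RMA, Partek and Affymetrix Expression Console are named in the submitters' processing notes, and RMA in the study's methods, but these values are not log2 RMA values, and how they were summarised is not given in the sources used here. The design had assumed log2 values, so log2 of the intensities was taken with no further normalization. Precision is limited by the number of arrays.

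Of the probesets, 64 are controls, 9211 were not listed in the annotation used, 932 have several gene symbols and 34958 have 1, which gave 18194 genes, each by its probeset with the highest mean. R 4.3.3 and limma 3.58.1 (lmFit, eBayes without and with trend) compared KO with WT, two-sided, Benjamini-Hochberg adjusted over all genes at 0.05. Pairs of members and single genes were tested by exact permutation. The fits were tested on simulated data. Figures used Python 3.11.15 and matplotlib 3.10.9. Promoters and names came from RefSeq tables of GRCm38.p6.

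The members and all lists were chosen with earlier results of these data known, and no list was tested. Named were all members, Ncoa2, the 3 genes with the smallest p of each pathway list in the common-variance fit and the 2 likest genes of each member. Itgav, Itgb8, Ltbp3, Eng, Tgfbr3, Smad4, Smad6, Smurf1, Smurf2, Tgif1, Tgfbi, Ccn2, Postn, Col1a1 and Col1a2 were added after their values were seen. The list genes Fbn1, Lrrc32, Loxl2, Itga11, Gdf15, Mstn and Rock2 are among those not analysed here. Of the marker lists, that of mural cells (7 of 9 lower in KO, with a higher sum that includes Acta2) held no call but Acta2. Those of lymphocytes (3 of 8 lower), platelets (4 of 6), erythroid cells (0 of 3), epicardium (4 of 6) and adipocytes (0 of 3) held none. The labels do not say whether the replicate numbers pair the arrays, and the main fits did not pair them. The deviations of arrays with the same number correlated at 0.07, -0.08, -0.03 and 0.12, which does not decide it.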

Additional observations from a re-analysis of the deposited data

Results flagged for a closer look

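Each genotype of the 9 members, of 21 other named genes and of 11 marker sums was examined, 82 groups of 4 hearts in all, and 8 held a heart far from the other 3, with a gap of over 0.829 of the group's range. Chance gives about 1 such group in 20, but Tgif1, Ccn2, Postn and Tgfbi were added after their values were seen, so the number of groups cannot be set against that rate. WT heart 2 stood above the other WT hearts in 4 of them. In Tgfbr1 it had a signal of 1908 against 1549 to 1569 (gap 0.945 of the range), in the fibroblast sum 132468 against 82120 to 85125 (0.940), in Tgfbi, a matrix protein gene, 1099 against 663 to 690 (0.939), and in Postn, periostin, 7102 against 3157 to 3538 (0.903). Without WT heart 2 the log2 difference was -0.10 for Tgfbr1, -0.08 for Tgfbr2, -0.39 for Tgfb2 and -0.88 for Smad7.

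KO hearts held the other 4. Ccn2 had a signal of 42319 in KO heart 1 against 5621 to 9177 (0.903), Wwp1 of 2946 in KO heart 3 against 3914 to 4047 (0.879), Tgif1 of 12.2 in KO heart 3 against 92.3 to 106 (0.855), and Smad1 of 1567 in KO heart 4 against 1179 to 1237 (0.850).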

How the results depend on the processing

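None of the 9 members was called in the common-variance fit or its 18 alternatives, and in the trended fit 1 (Smad7) was called without KO heart 4 and 0 otherwise (0 to 1 when any heart was left out). The difference of Smad7 ran from -0.91 to -0.54. Its hearts stayed apart with the mean of probesets, median centring and quantile normalization. Leaving out a heart cannot make separated groups overlap, so those settings could not change this. The difference of Tgfb2 ran from -0.60 to -0.22, with its hearts apart only without WT heart 4 or KO heart 4, and that of Tgfb3 from -0.60 to -0.23. The cause of the changes listed here was not tested.

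The number of genes called in all depends on the settings. The common-variance fit called 1 higher and 3 lower. It called 0 higher with the mean of all probesets, with genes of a signal of 50 or more, with a floor of 50, with quantile normalization and with the replicate number as a block, 1 lower with the mean of probesets, 0 lower with the block, 5 lower with array weights, and 22 higher and 47 lower with the trend. Leaving out hearts gave 0 to 1 higher and 1 to 5 lower. The trended fit called 3 higher and 12 lower with the mean of probesets, and 0 and 2 with the floor. It called 30 lower with quantile normalization, and 2 to 104 higher and 3 to 218 lower when a heart was left out. The 104 and the 218 came without KO heart 4, the setting that called Smad7. With the replicate block, Smad7 kept its difference of -0.79 (limma adjusted p = 0.55), and no member was called.

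Small differences turned sign. Tgfb1 was 0.050 with median centring, 0.045 with quantile normalization and -0.13 to 0.042 without a heart. The mean of probesets gave 0.12 for Tgfbr2, 0.18 for Smad3 and -0.21 for Ltbp1. It gives equal weight to dim probesets, with mean signals of 43.0 and 22.6 for Tgfbr2, 24.8 for Smad3, and 46.2 and 8.50 for Ltbp1. Smad3 was 0.055 with median centring and -0.087 to 0.012 without a heart, Smad2 -0.013 to 0.12 without a heart, and Ltbp1 -0.0054 with array weights and -0.14 to 0.13 without a heart. Of the pairs, the mean of probesets gave 0.22 for Tgfb2 minus Tgfb3, -0.51 for Tgfbr1 minus Tgfbr2 and -0.068 for Smad2 minus Smad3, and leaving out a heart gave -0.21 to 0.056 and -0.033 to 0.14 for the former pairs.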
